A study of Mus musculus with 9 samples.

Results

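The 40 genes described here code for PPAR alpha, 2 of its partners in transcription, and the enzymes and carriers that activate, import and oxidise fatty acids in the mitochondria, peroxisomes and microsomes of the liver. They were chosen by symbol and matched by Entrez Gene identifier, 40 of 40 were found among the 17846 genes listed, and all 40 had enough counts to be tested. Liver RNA was sequenced from 9 male wild-type C57/BL mice, with 1 library per mouse and no pooling. The 3 Control mice ate normal chow and stayed sedentary. The 3 NASH mice ate the atherogenic (Ath) diet, which contained cholesterol and cholate, for 20 weeks and also stayed sedentary. The 3 NASH+Exercise mice ate the Ath diet for the same time and ran on a treadmill during the last 8 weeks, after 12 weeks of diet alone. Training began at 20 weeks of age. All mice were fasted overnight before the livers were taken.

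PPAR alpha is a nuclear receptor that binds fatty acids, pairs with RXR on DNA elements of the direct repeat kind, and drives the genes of fatty acid oxidation when the liver is fasted. Long-chain fatty acids are joined to coenzyme A by acyl-CoA synthetases, pass into mitochondria through the carnitine shuttle and are shortened there 2 carbons at a time, while peroxisomes take very long chains and the microsomal Cyp4a enzymes oxidise the far (omega) end. In mice, Cyp4a10, Cyp4a14, Acot1 and Pdk4 are among the genes that answer PPAR alpha most steeply, and the mitochondrial enzymes answer it less.

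Total estimated counts ran from 20085976 to 22495408 per mouse. Values per mouse are CPM, the counts scaled to the effective library size after TMM, and levels of different genes are compared only as deposited TPM, which take length into account. A log2 fold change is given ± its standard error. A gene passed the test at an adjusted p under 0.05 in edgeR's quasi-likelihood test (Benjamini-Hochberg over 13619 genes), and was called a DEG when its fold change was also above 1 on the log2 scale in either direction. The hepatocyte markers together held 102023 ± 5706 TPM in the Control mice, 108701 ± 12481 in the NASH mice and 92458 ± 9694 in the trained mice. As CPM after TMM the same markers summed to 132662 ± 11117, 105757 ± 18410 and 108486 ± 9618, with every NASH mouse below every Control mouse, so their direction in NASH depends on the scale. Adipoq, Plin1 and Ckm, which mark fat and muscle, stayed at or under 0.28 TPM in every library. The summed macrophage markers went from 95.5 ± 40.1 TPM in Control mice to 1280 ± 223 in NASH mice and 812 ± 124 in trained mice, and 8 of 8 were higher in NASH than in Control. Neutrophil markers summed to 8.12 ± 2.2, 109 ± 12.2 and 75.1 ± 21.5 TPM, and stellate cell markers to 120 ± 56.6, 318 ± 84.4 and 174 ± 40.6. The part of these cells in the differences below was not tested, and in whole liver fewer hepatocytes and less RNA per hepatocyte cannot be told apart.

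Scaling matters for genes that differ little. The TMM factors of the Control mice (0.80 to 0.976) were all below those of the NASH mice (1.09 to 1.23), and those of the NASH+Exercise mice (0.912 to 1.08) overlapped the former. With library size alone the median of all genes tested moved from 0.01 to 0.36 on the log2 scale in NASH against Control and from -0.03 to -0.23 in NASH+Exercise against NASH, and 633 genes were lower and 4489 higher in NASH than in Control in place of 1960 and 2886. With library size alone, and likewise with scaling on hepatocyte markers, Ppargc1a turned direction in NASH against Control, and 15 members turned from slightly higher to lower in NASH+Exercise against NASH. None of these turned values passed the test.

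The first comparison asked what the Ath diet did to the oxidation genes. In NASH livers, 38 of the 40 genes were lower than in Control, against 14.4% of all genes tested, and 27 were DEGs, against 3.03% of all genes. None was higher, whereas 21.2% of all genes were. Without adjustment 0 members were higher at a p under 0.05 in edgeR, against 25.4% of all genes, and 0 were higher in DESeq2 on 9 mice and in limma on log2(TPM + 1), where 18.5% and 35.3% of all genes were. The 3 NASH mice lay below the 3 Control mice for 39 of the 40 genes, against 22.2% of all genes. The median log2 fold change was -1.13 over the members and 0.01 over all genes. Scaled on 10 hepatocyte markers in place of all genes, 33 members were still lower, against 4.12% of all genes, and the median was -0.84. With library size alone 34 members were lower, against 4.65% of all genes, and 16 were DEGs, against 1.61%. In limma on log2(TPM + 1) 31 were lower, against 4.23% of all genes, and 13 were DEGs, against 1.31%.

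**Figure D1:**
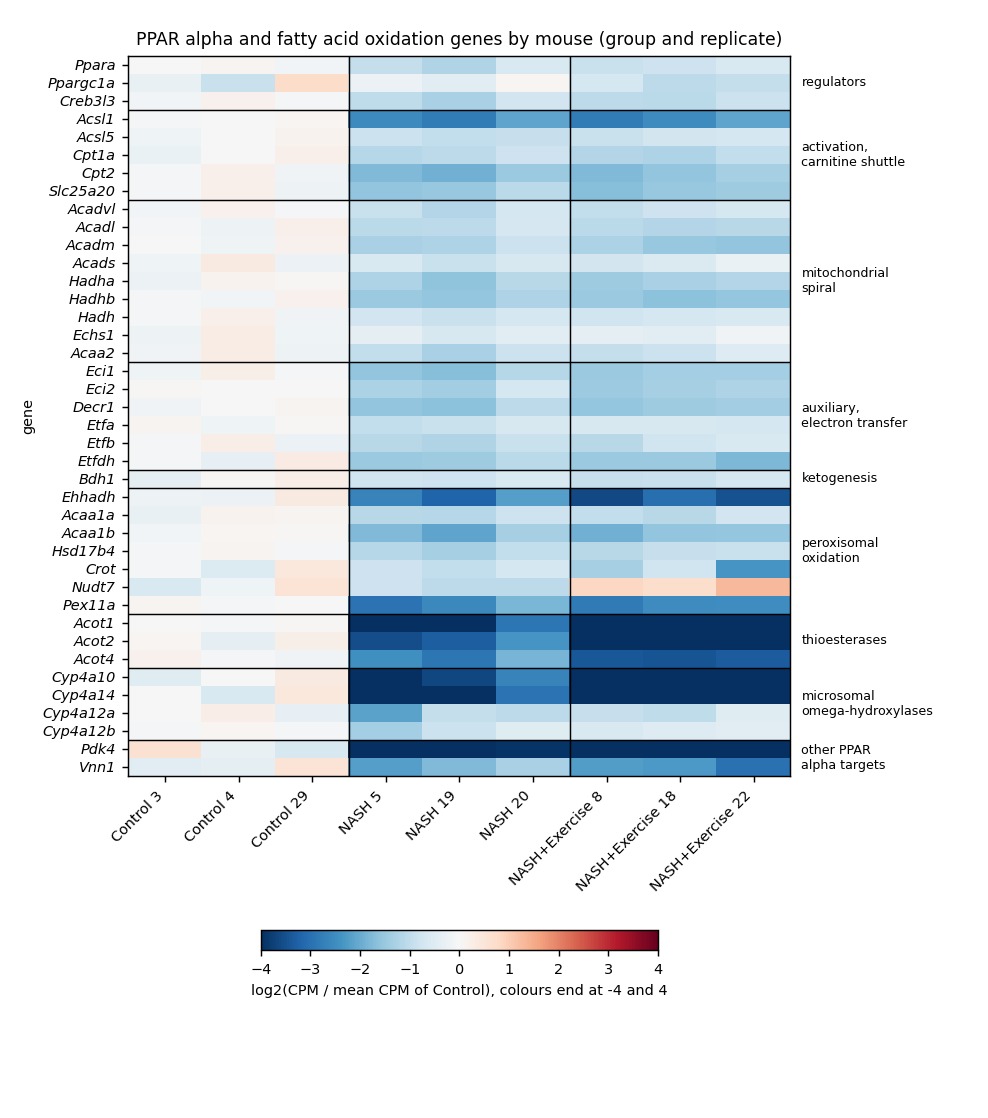
Level of each of the 40 genes in each of the 9 mice, as log2 of CPM over the mean CPM of the Control mice, with rows grouped by compartment and columns by group. Blue is lower and red higher than Control. The NASH and NASH+Exercise columns are blue in nearly every row, darkest for Acot1, Cyp4a10, Cyp4a14 and Pdk4, and Nudt7 is red in the 3 NASH+Exercise mice.

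The compartments differed in depth. The median log2 fold change in NASH against Control was -0.92 over the 9 genes of the mitochondrial spiral, -1.15 over 7 peroxisomal genes, -1.20 over 6 auxiliary and electron transfer genes and -1.38 over 5 genes of activation and the carnitine shuttle. It was -2.34 over 4 microsomal omega-hydroxylases, -2.97 over 3 acyl-CoA thioesterases and -3.10 over Pdk4 and Vnn1. These are descriptions of the lists and were not tested against each other. Per length, the omega-hydroxylases held the most RNA of the compartments in Control, 6869 ± 2727 TPM in all, and 807 ± 493 in NASH. The mitochondrial spiral held 2803 ± 265 TPM in Control and 1907 ± 116 in NASH. The 40 genes together summed to 19533 ± 4884 TPM in Control mice, 7091 ± 1172 in NASH mice and 5648 ± 148 in trained mice (mean ± SD, n = 3). As CPM after TMM the sums were 29667 ± 4042, 7769 ± 1745 and 7219 ± 560. NASH and trained mice overlapped in CPM but not in TPM, so the step between these 2 groups depends on the scale.

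**Figure D2:**
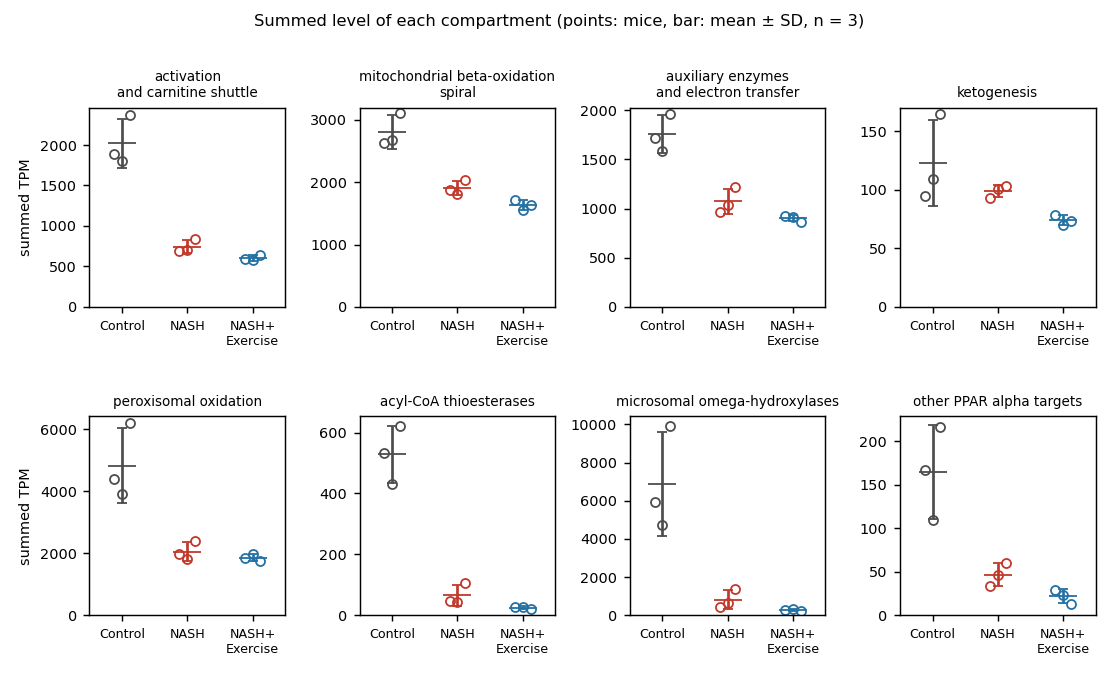
Summed TPM of each compartment of enzymes in each mouse (points), with the mean and SD of the 3 mice per group, on axes that start at 0. The omega-hydroxylases, thioesterases and other PPAR alpha targets fall nearest to 0 in NASH, and the mitochondrial spiral keeps 0.68 of its Control level.

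Among the regulators, Ppara itself read 398, 423 and 366 CPM in the Control mice, 204, 171 and 262 in the NASH mice and 212, 223 and 261 in the NASH+Exercise mice. Every NASH mouse was below every Control mouse, and the gene fell by 0.90 ± 0.17 on the log2 scale (adjusted p = 0.00206). Creb3l3, which codes for CREBH, a membrane-bound factor of the fasted liver that works with PPAR alpha, read 515, 623 and 536 CPM in the Control mice, 276, 228 and 327 in the NASH mice and 269, 262 and 306 in the NASH+Exercise mice. It fell by 1.01 ± 0.16 without overlap (adjusted p = 0.000747). Ppargc1a, the coactivator PGC-1 alpha, was low and read 8.37, 5.62 and 17.1 CPM in the Control mice, 8.85, 7.64 and 11 in the NASH mice and 6.33, 5 and 5.41 in the NASH+Exercise mice. Its NASH values lay within the Control range, with a log2 fold change of -0.18 ± 0.34 (adjusted p = 0.72). With library size alone Ppargc1a turned to 0.11, still short of the test.

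The genes of activation and import fell to different depths. Acsl1, the main long-chain acyl-CoA synthetase of hepatocytes, read 2956, 3124 and 3275 CPM in the Control mice, 537, 448 and 723 in the NASH mice and 450.4, 543 and 725 in the NASH+Exercise mice. The groups stood far apart, and the gene fell by 2.45 ± 0.23 (adjusted p = 2.74e-05). Acsl5, another synthetase, fell less, by 0.92 ± 0.12 (adjusted p = 0.000253). Of the carnitine shuttle, Cpt1a makes acylcarnitine at the outer membrane, Slc25a20 carries it across the inner membrane and Cpt2 turns it back into acyl-CoA. Cpt1a read 617, 752 and 851 CPM in the Control mice, 335, 355 and 417 in the NASH mice and 328, 317 and 375 in the NASH+Exercise mice. The groups of Control and NASH did not overlap, and the log2 fold change of Cpt1a was -1.003 ± 0.159 (adjusted p = 0.000771). Slc25a20 fell by 1.38 ± 0.17 and Cpt2 by 1.72 ± 0.17, both without overlap (adjusted p = 0.000134 and 4.07e-05).

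The mitochondrial spiral opens with the acyl-CoA dehydrogenases, which are named for chain length. Acadvl (very long), Acadl (long) and Acadm (medium) fell by 0.91 ± 0.16, 0.92 ± 0.15 and 1.11 ± 0.16 on the log2 scale, and Acads (short) by 0.71 ± 0.18. All 4 had NASH values below every Control value, the narrowest gap being that of Acads with 136, 196 and 129 CPM in the Control mice, 100.1, 83 and 98.9 in the NASH mice and 92.4, 104 and 129 in the NASH+Exercise mice. The call of Acads was lost without NASH replicate 19, in limma on log2(TPM + 1) or log2(TPM + 0.1), and with a 1.5-fold threshold (adjusted p up to 0.392 over the 21 settings). Hadha and Hadhb code for the alpha and beta subunits of the trifunctional protein, which carries out the remaining steps on long chains. Hadha read 573, 733 and 696 CPM in the Control mice, 281, 219 and 311 in the NASH mice and 251, 273 and 295 in the NASH+Exercise mice. Hadhb read 336, 326 and 397 CPM in the Control mice, 127, 122 and 149 in the NASH mice and 126, 114 and 120.3 in the NASH+Exercise mice. Both were lower in NASH without overlap, by 1.30 ± 0.17 for Hadha and 1.42 ± 0.13 for Hadhb (adjusted p = 0.000186 and 2.88e-05).

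Hadha and Hadhb lie head to head on chromosome 5 (GRCm38.p6, RefSeq), Hadha at chr5:30119423-30154980 on the minus strand and Hadhb at chr5:30155253-30184593 on the plus strand. The 272 bases between their starts, at chr5:30154981-30155252, are shown because both subunits moved together and share this stretch as upstream sequence. It is given on the plus strand, from the Hadha side on the left to the Hadhb side on the right.
Hadha-Hadhb: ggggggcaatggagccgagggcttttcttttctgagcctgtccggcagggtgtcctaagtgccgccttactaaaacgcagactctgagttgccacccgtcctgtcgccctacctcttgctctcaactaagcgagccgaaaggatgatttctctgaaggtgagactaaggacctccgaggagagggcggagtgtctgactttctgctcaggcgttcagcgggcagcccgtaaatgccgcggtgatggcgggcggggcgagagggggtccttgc

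The last enzymes of the spiral act on shorter chains. Echs1 (enoyl-CoA hydratase) read 152, 216 and 156 CPM in the Control mice, 132, 111 and 126 in the NASH mice and 133, 129.6 and 159 in the NASH+Exercise mice. This gene had the smallest called fall of the members, 0.50 ± 0.16 (adjusted p = 0.0311), and was past the test in 12 of the 21 settings run, the one reported here included. Leaving out Control replicate 4 or any 1 NASH mouse ended this call. So did library size alone, hepatocyte scaling, limma on log2(TPM + 1) or log2(TPM + 0.1), and a 1.5-fold threshold. Over the settings the log2 fold change of Echs1 came as near to 0 as -0.05. On deposited TPM Control and NASH overlapped for Echs1, at 172 ± 16.9 and 165 ± 7.0. Hadh (hydroxyacyl-CoA dehydrogenase) fell by 0.78 ± 0.14 and Acaa2 (3-ketoacyl-CoA thiolase) by 1.04 ± 0.19. Acaa2 had the highest TPM of the spiral in every group, 819 ± 55.1 in Control and 543 ± 44.2 in NASH.

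Acadm is also shown by the 250 bases before its start, as an example of the 6 members with a match to the half-site AGGTCA. This half-site is the core of the elements that PPAR alpha and other nuclear receptors bind. The other printed stretches hold no match. The stretch lies at chr3:153944644-153944893 (GRCm38.p6, minus strand, RefSeq), and the capitals mark the half-site, which is on the opposite strand.
Acadm: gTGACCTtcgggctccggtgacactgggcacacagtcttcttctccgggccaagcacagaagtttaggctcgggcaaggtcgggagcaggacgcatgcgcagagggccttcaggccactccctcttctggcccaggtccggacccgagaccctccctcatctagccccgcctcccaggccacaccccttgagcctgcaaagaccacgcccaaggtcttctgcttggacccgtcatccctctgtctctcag

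Promoter windows of 300 bases (250 before and 50 after the start) were at hand for 32 of the 40 genes, as 36 windows. The half-site AGGTCA on either strand was in 6 of these windows (Acadm, Acadvl, Acot4, Cpt1a, Creb3l3 and Echs1), against 16.3% of all 32851 windows. The direct repeat AGGTCANAGGTCA was in 0 of them, against 0.0396% of all windows. The looser AGGNCANAGGNCA was also in 0, against 0.381%. The half-site is part of both repeats. No match says only that these letters are not in these windows.

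Unsaturated chains and electrons are handled by 6 further genes, and all 6 fell. Eci1, Eci2 and Decr1, which move or reduce double bonds, fell by 1.45 ± 0.17, 1.08 ± 0.17 and 1.39 ± 0.17. Etfa and Etfb, the subunits of the flavoprotein that collects electrons from the dehydrogenases, fell by 0.82 ± 0.13 and 1.07 ± 0.18, and Etfdh, which passes them to the respiratory chain, by 1.32 ± 0.19. Their adjusted p ran from 0.000112 (Eci1) to 0.00103 (Etfb). Bdh1, which makes the ketone body beta-hydroxybutyrate, read 199, 267 and 306 CPM in the Control mice, 149, 146 and 170.2 in the NASH mice and 135, 138 and 157 in the NASH+Exercise mice. It was lower in NASH without overlap and fell by 0.73 ± 0.16 (adjusted p = 0.00574). The call held in 16 of the 21 settings and was lost with library size alone, hepatocyte scaling, both limma fits and a 1.5-fold threshold (adjusted p up to 0.302). On deposited TPM the Bdh1 values of both groups overlapped.

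The peroxisomal genes split into steep and shallow falls. Ehhadh, the bifunctional hydratase and dehydrogenase of the peroxisome, read 2061, 2037 and 3045 CPM in the Control mice, 370, 259 and 522 in the NASH mice and 193, 296 and 212 in the NASH+Exercise mice. It fell by 2.63 ± 0.29 with a wide gap between the groups (adjusted p = 8.31e-05). Pex11a, which drives peroxisome division, read 282, 251 and 259 CPM in the Control mice, 34, 44.1 and 73.6 in the NASH mice and 36.9, 45.8 and 47.1 in the NASH+Exercise mice. It fell by 2.38 ± 0.25 (adjusted p = 6.68e-05). The thiolase Acaa1b fell by 1.70 ± 0.21 and its near copy Acaa1a by 1.01 ± 0.16, and Hsd17b4, the other bifunctional enzyme, by 1.15 ± 0.14. Acaa1b held 2113 ± 299 TPM in Control, more than Acaa1a with 189.7 ± 39.4. Crot, which makes medium-chain acylcarnitines for export, read 1012, 711 and 1415 CPM in the Control mice, 592, 526 and 641 in the NASH mice and 414, 606 and 202 in the NASH+Exercise mice. The groups did not overlap, but the Control mice spread widely and Crot did not pass the test, at -0.83 ± 0.36 (adjusted p = 0.1). Nudt7, which hydrolyses coenzyme A in peroxisomes, fell by 0.97 ± 0.27 (adjusted p = 0.0173), a call that held in 14 of the 21 settings. It was lost without NASH replicate 19 or NASH replicate 20, and with library size alone, hepatocyte scaling, both limma fits and a 1.5-fold threshold (adjusted p up to 0.232 over the settings).

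Thioesterases, which release free fatty acids from acyl-CoA, had larger log2 falls than any gene of the mitochondrial spiral, which was not tested as a difference. Acot1 (cytosolic) read 433, 431 and 457 CPM in the Control mice, 22.4, 17.7 and 59.5 in the NASH mice and 15.8, 19 and 13.1 in the NASH+Exercise mice. The Control mice lay close together, every NASH mouse was far below them, and Acot1 fell by 3.73 ± 0.42 (adjusted p = 0.000154). Acot2 (mitochondrial) fell by 2.97 ± 0.31 and Acot4 (peroxisomal) by 2.35 ± 0.23 (adjusted p = 9.01e-05 and 3.62e-05). The 3 genes lie in a cluster of 6 coding Acot genes at chr12:83987861-84109783 (GRCm38.p6, RefSeq), 122 kb long. Of the neighbours that are not among the 40 genes, Acot3 read 178, 145 and 133 CPM in the Control mice, 3.7, 2.79 and 18.3 in the NASH mice and 1, 0.425 and 0.634 in the NASH+Exercise mice, a fall by 4.20 ± 0.64 (adjusted p = 0.000897), and Acot5 fell by 3.87 ± 0.50 from 1.28 ± 0.0586 CPM in Control. Acot6 had too few counts to be tested.

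The microsomal genes divided by copy. Cyp4a14 read 6184, 4083 and 8442 CPM in the Control mice, 169, 126 and 803 in the NASH mice and 19.8, 33.7 and 5.8 in the NASH+Exercise mice. It had the highest TPM of all 40 genes in Control, 3863 ± 1823, was 7th in NASH with 285 ± 285, and fell by 4.09 ± 0.84 (adjusted p = 0.00491). Cyp4a10 read 2672, 3811 and 4851 CPM in the Control mice, 188, 300 and 591 in the NASH mice and 67.5, 141 and 28.8 in the NASH+Exercise mice. It fell by 3.39 ± 0.61 (adjusted p = 0.00237). Cyp4a12a and Cyp4a12b, the copies known for male-biased expression, fell by 1.28 ± 0.30 and 0.85 ± 0.19. The call of Cyp4a12b held in 16 of the 21 settings and was lost under the same 5 as that of Bdh1 (adjusted p up to 0.153). The 4 members lie in a cluster of 8 coding Cyp4a genes at chr4:115242044-115622507 (GRCm38.p6, RefSeq). Next to Cyp4a10, Cyp4a31 fell by 1.67 ± 0.39 and Cyp4a32 by 1.06 ± 0.32 (adjusted p = 0.00886 and 0.0284).

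Pdk4, the kinase that shuts off pyruvate dehydrogenase so that fatty acids are burnt in place of glucose, read 207, 109.8 and 87.2 CPM in the Control mice, 6.94, 2.25 and 8.88 in the NASH mice and 1.7, 1.65 and 1.02 in the NASH+Exercise mice. Its fall by 4.49 ± 0.51 was the largest of the 40 genes in 18 of the 21 settings (adjusted p = 0.000162), from 57.2 ± 27.6 to 3.37 ± 1.77 TPM. In the other 3 settings Cyp4a14 fell further, to -5.40 without NASH replicate 20, and the difference between both genes was not tested. Vnn1, a pantetheinase that feeds coenzyme A turnover, fell by 1.71 ± 0.33 (adjusted p = 0.00314), and both genes had no overlap of Control and NASH. The 250 bases before the start of Pdk4, at chr6:5496279-5496528 (GRCm38.p6, minus strand, RefSeq), are shown because this gene had the largest fall in the fit reported. They hold no AGGTCA.
Pdk4: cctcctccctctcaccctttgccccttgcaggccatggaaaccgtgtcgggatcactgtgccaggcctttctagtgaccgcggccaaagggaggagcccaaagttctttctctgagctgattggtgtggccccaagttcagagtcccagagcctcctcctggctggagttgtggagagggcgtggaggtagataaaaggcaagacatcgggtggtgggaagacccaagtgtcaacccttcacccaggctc

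Near copies limit how reads can be split. Of the words of 50 bases in the longest coding transcript of each gene (GENCODE M21), 48.9% of those of Cyp4a12a were also in Cyp4a12b, 34.0% of those of Acaa1a in Acaa1b, 23.7% of those of Acot1 in Acot2 and 25% of those of Cyp4a10 in Cyp4a32. Etfb shared 67.3% with Gm45233 and Hadhb 61.5% with Gm13910. These shares mark genes whose values are less certain, but they are not the size of the error, which was not estimated. In contrast, 22 of the 40 genes shared no such word with another gene.

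The second comparison asked whether training altered these genes in mice on the Ath diet. It shares the NASH mice with the first, so values of both are given side by side and are not independent. Of the 40 genes, 1 was higher in NASH+Exercise than in NASH, against 0.11% of all genes tested, and 0 were lower, against 0.0514%. Without adjustment 8 members were lower at a p under 0.05 in edgeR, against 10.7% of all genes. DESeq2 called 5 members lower when fitted to 9 mice (Acot2, Acot4, Cyp4a10, Cyp4a14 and Pdk4), against 1.56% of the genes it gave an adjusted p, and 4 when fitted to the 6 mice compared, against 2.15%. Limma called 2 (Acot4 and Cyp4a14) on log2(TPM + 1), against 0.908% of all genes, and 0 on log2(TPM + 0.1), against 0.199%. Groups did not overlap for 9 members that were lower, against 14.9% of all genes, and for 1 that was higher, against 9.16%.

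**Figure D3:**
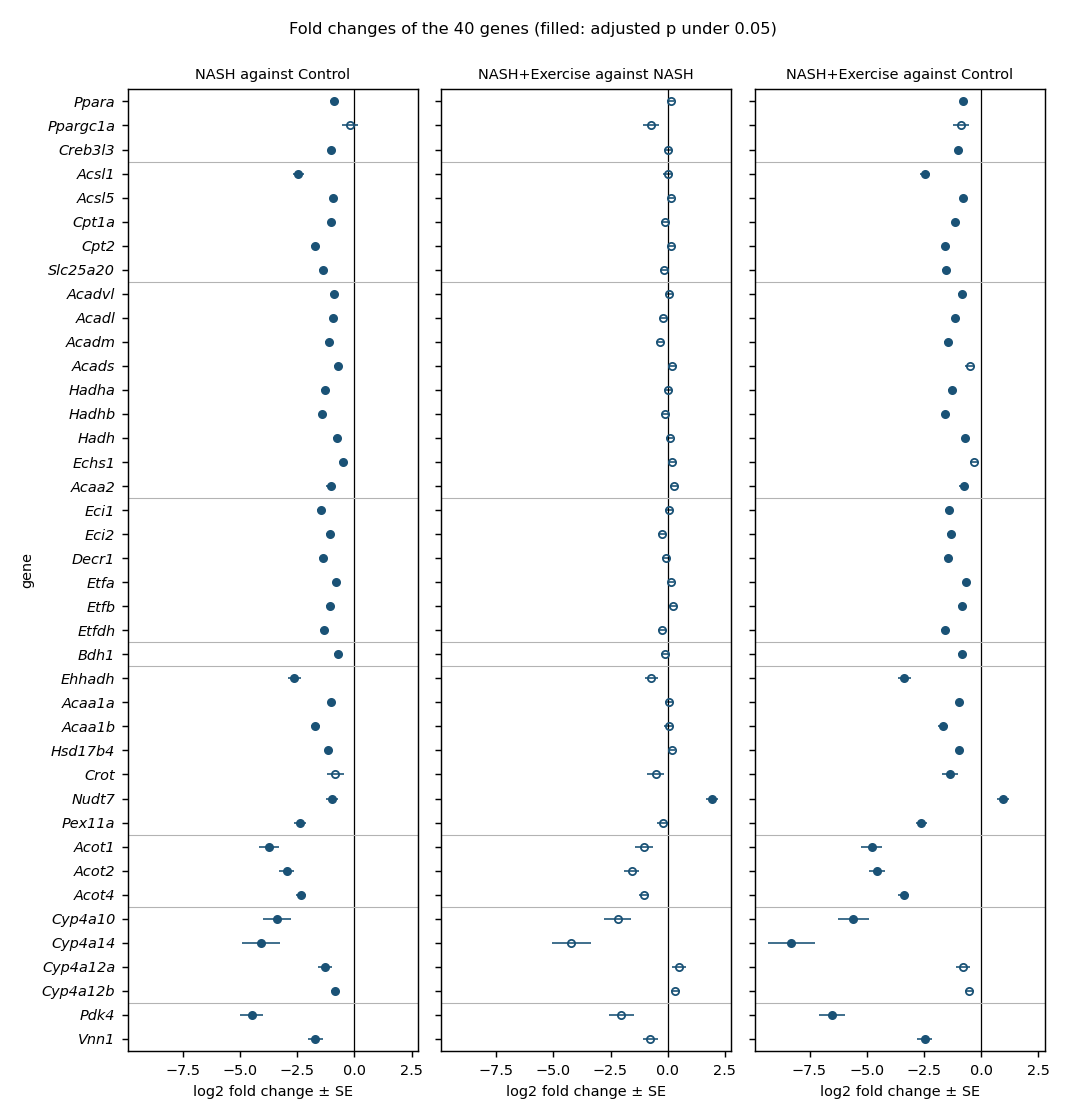
Log2 fold change ± SE of each of the 40 genes in the 3 comparisons, on a shared axis, with filled points for an adjusted p under 0.05 in edgeR and lines between compartments. In NASH+Exercise against NASH the mitochondrial genes lie near 0, Nudt7 alone is filled, and Cyp4a14, Cyp4a10, Pdk4 and the Acot genes lie to the left.

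Nudt7 was the gene that rose. It read 122, 164 and 269 CPM in the Control mice, 103, 90.2 and 90.1 in the NASH mice and 327, 301 and 456 in the NASH+Exercise mice. All 3 NASH+Exercise mice were above all 3 NASH mice and also above all 3 Control mice. The log2 fold change was 1.93 ± 0.27 against NASH (adjusted p = 0.0405), or 3.82-fold, and 0.97 ± 0.27 against Control (adjusted p = 0.023). Per length, Nudt7 ranked 22nd of the 40 genes in Control and 3rd in NASH+Exercise, where it held 454 ± 72.8 TPM. The direction held in all 21 settings, with log2 fold changes of 1.65 to 2.05, but the call against NASH held in 10 of them. It was lost with library size alone, with hepatocyte scaling, in limma on log2(TPM + 0.1) and against a 1.5-fold threshold. It was also lost when any 1 NASH mouse, Control replicate 3, Control replicate 4, or NASH+Exercise replicate 18 or 22 was left out, with adjusted p up to 0.149. Few genes of any kind were called higher in those left-out fits. Over all genes tested there were 9 without Control replicate 4, 1 without NASH replicate 19 and 0 in the others, so these losses are not particular to Nudt7. The call of Nudt7 against Control held in 16 settings and was lost without Control replicate 3, Control replicate 4 or NASH+Exercise replicate 22. It was also lost in edgeR on 6 mice and with a 1.5-fold threshold (adjusted p up to 0.193 over the settings). No word of 50 bases of its transcript was found in another gene. The other 6 peroxisomal members ran from -0.71 (Ehhadh) to 0.18 (Hsd17b4), and none passed. Hsd17b4, Acaa1a and Acaa1b turned to lower values with library size alone.

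Nudt7 lies at chr8:114133574-114154731 (GRCm38.p6, RefSeq, plus strand), and the 250 bases before its start, at chr8:114133324-114133573, are shown because it was the one member that rose with training. They hold no AGGTCA on either strand.
Nudt7: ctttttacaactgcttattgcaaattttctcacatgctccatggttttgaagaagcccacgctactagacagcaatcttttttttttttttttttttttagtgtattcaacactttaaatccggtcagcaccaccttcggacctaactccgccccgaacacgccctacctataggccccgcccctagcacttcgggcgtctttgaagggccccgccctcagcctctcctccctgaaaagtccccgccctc

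Several genes with steep falls in NASH had still lower values in the trained mice, without passing the test, and others did not. Cyp4a14 stood at -4.21 ± 0.86 against NASH (adjusted p = 0.116), with the 3 NASH+Exercise mice between 5.8 and 33.7 CPM and no overlap. Cyp4a10 stood at -2.19 ± 0.58 (adjusted p = 0.157) and Pdk4 at -2.03 ± 0.55 (adjusted p = 0.16), again with no overlap. Acot2 read 79.9, 57.2 and 88.5 CPM in the Control mice, 6.4, 7.72 and 14.7 in the NASH mice and 3.36, 3.87 and 2.44 in the NASH+Exercise mice. Its difference was -1.57 ± 0.33 (adjusted p = 0.116). Acot4, with -1.04 ± 0.23, also had no overlap, while NASH+Exercise and NASH overlapped for Acot1, at -1.05 ± 0.39 (adjusted p = 0.122 and 0.26). Vnn1 stood at -0.76 ± 0.33 (adjusted p = 0.307). Acsl1 and Pex11a, whose falls in NASH were close in size to that of Acot4, overlapped between NASH and NASH+Exercise, at 0.01 ± 0.22 and -0.22 ± 0.24. So did G0s2, a PPAR alpha target outside the 40 genes, at -0.43 ± 0.37.

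These differences rest in part on NASH replicate 20. That mouse had the highest CPM of the 3 NASH mice for 35 of the 40 genes, and NASH replicate 19 the lowest for 27. Cyp4a14 read 803 CPM in NASH replicate 20 against 126 and 169 in the other NASH mice. Without NASH replicate 20, the difference between NASH+Exercise and NASH was -2.90 for Cyp4a14 (adjusted p = 0.223), -1.63 for Cyp4a10 (0.351), -1.64 for Pdk4 (0.351), -1.13 for Acot2 (0.223), -0.71 for Acot4 (0.240) and -0.32 for Acot1 (0.528), all from edgeR. In that fit 0 of all 13755 genes passed in this comparison. In the trained group NASH+Exercise replicate 22 was highest for 26 genes, yet it was lowest for Cyp4a10, Cyp4a14, Acot1, Acot2, Pdk4 and Vnn1. In Control the highest mouse varied, with 18 genes for replicate 29, 17 for replicate 4 and 5 for replicate 3.

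**Figure D4:**
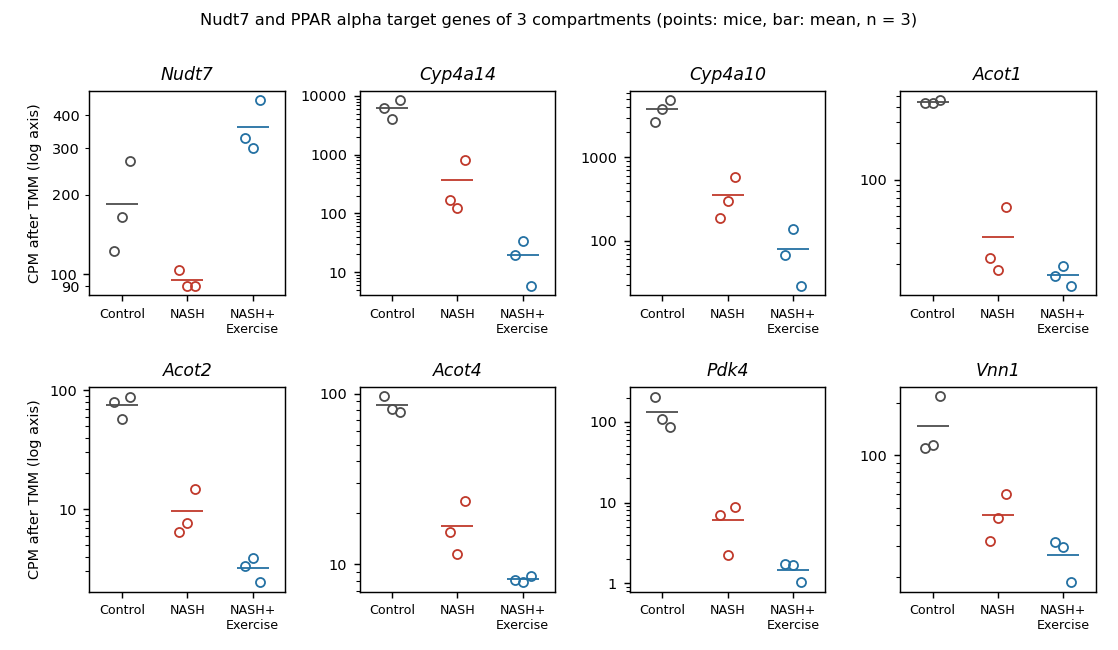
CPM after TMM of 8 genes in each mouse (points) with the group mean (bar, n = 3), on log axes that differ by panel. Nudt7 is highest in NASH+Exercise, the other 7 genes are highest in Control, and the NASH point that stands above its group in Cyp4a14, Acot1 and Acot2 is NASH replicate 20.

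Mitochondrial oxidation genes differed little between trained and sedentary NASH mice. Over the 20 genes of activation, shuttle, spiral, auxiliary steps and electron transfer, differences ran from -0.33 ± 0.16 (Acadm) to 0.27 ± 0.19 (Acaa2), and none passed. Acsl1 stood at 0.01 ± 0.22, Cpt1a at -0.12 ± 0.16, Hadha at 0.01 ± 0.16 and Ppara at 0.13 ± 0.17. With library size alone Acsl1, Hadha and Ppara turned to -0.20, -0.18 and -0.07. The standard errors of these 4 were 0.16 to 0.22, so differences of this size are within the error. Effects of training well above the error could also be missed with 3 mice per group. Acot2, for example, stood at -1.57 against NASH and did not pass (adjusted p = 0.116 in edgeR). With library size alone the median over all members turned from -0.03 to -0.23, as the median of all genes did. On deposited TPM the summed level of the spiral was 1638 ± 82.7 in NASH+Exercise, below 1907 ± 116 in NASH without overlap. After TMM scaling the same sums overlapped, at 1937 ± 167 and 1864 ± 239 CPM, so the direction depends on the scale.

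The third comparison set trained mice on the Ath diet against Control mice on chow. Of the 40 genes, 34 were lower in NASH+Exercise, against 9.58% of all genes tested, and 24 were DEGs, against 3.07%. One gene, Nudt7, was higher, where 15.6% of all genes were. For 37 genes every NASH+Exercise mouse was below every Control mouse, against 17% of all genes. The 5 genes that did not pass were Ppargc1a (-0.90 ± 0.35), Acads (-0.50 ± 0.18), Echs1 (-0.31 ± 0.16), Cyp4a12a (-0.79 ± 0.29) and Cyp4a12b (-0.51 ± 0.19). The steepest log2 fold changes were those of Cyp4a14 (-8.30 ± 1.03), Pdk4 (-6.52 ± 0.58), Cyp4a10 (-5.58 ± 0.68), Acot1 (-4.78 ± 0.45), Acot2 (-4.54 ± 0.35), Acot4 (-3.38 ± 0.24) and Ehhadh (-3.35 ± 0.30). Cyp4a14, first of the 40 genes by TPM in Control, was 36th in NASH+Exercise with 13.2 ± 9.21 TPM, and Acaa1b was first with 715 ± 39.1. Crot, which had not passed in NASH, fell by 1.36 ± 0.37 (adjusted p = 0.0221), with 1 trained mouse at 202 CPM. That call held in 12 of the 21 settings and was lost without Control replicate 3, Control replicate 29 or NASH+Exercise replicate 8. It was also lost with library size alone, hepatocyte scaling, both limma fits, edgeR on 6 mice and a 1.5-fold threshold (adjusted p up to 0.097 over the settings). The call of Acaa2 held in 18 of the 21 settings and was lost without NASH+Exercise replicate 8 or 18 and with a 1.5-fold threshold (adjusted p up to 0.365 over the settings).

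Other genes of the same pathways moved in the same direction as the members for the most part. Of 15 other genes of mitochondrial oxidation and ketogenesis, 8 fell and 1 rose in NASH. Of all genes tested, 14.4% fell and 21.2% rose, the shares to set beside this list and those that follow. Cpt1b, the muscle form of the outer shuttle enzyme, fell by 2.05 ± 0.22 from a low level, and the thioesterase Acot9 rose by 1.76 ± 0.27. Of 19 other peroxisomal genes tested, 12 fell and 1 rose. Crat, which makes acetylcarnitine, fell by 2.25 ± 0.30. Of 10 other omega-oxidation genes 6 fell and 2 rose, the latter being Cyp4f16 by 2.68 ± 0.20 and Cyp4f18, known from myeloid cells, by 3.26 ± 0.26.

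Of 17 other PPAR alpha targets tested, 15 fell and 0 rose in NASH (median -1.55), against 14.4% and 21.2% of all genes. G0s2, an inhibitor of the lipase ATGL, had a log2 fold change of -4.003 ± 0.405 and Retsat, a retinol saturase, of -2.51 ± 0.30. Fgf21, the fasting hormone of the liver, read 50.02, 35.3 and 43.7 CPM in the Control mice, 10.7, 6.67 and 11.2 in the NASH mice and 1.96, 2.31 and 1.02 in the NASH+Exercise mice. The 3 groups stood apart without overlap, and Fgf21 fell by 2.17 ± 0.26 in NASH against Control (adjusted p = 0.000149) and by 2.42 ± 0.29 in NASH+Exercise against NASH (adjusted p = 0.0405). It was the only gene of the 7 further lists that passed in the second comparison, in 15 of the 21 settings. Among the settings that lost the call were those without NASH replicate 20 (adjusted p = 0.104) or NASH+Exercise replicate 18, and the 1.5-fold threshold. In each of these settings 0 of all genes tested passed in the second comparison. The adjusted p of Fgf21 was up to 0.134 over the settings. Partners and coregulators of PPAR alpha moved less. Of 17 tested, 2 fell (Sirt3 by 0.65 ± 0.17 and Rxrb by 0.48 ± 0.16) and 1 rose (Ncoa3 by 0.50 ± 0.14), with a median of -0.01. The same 14.4% and 21.2% of all genes stand beside these counts. The call of Rxrb held in 8 of the 21 settings, that of Sirt3 in 15 and that of Ncoa3 in 16.

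Genes of the organelles themselves fell by less than the oxidation genes within them, as medians that were not tested against each other. Of 15 genes of mitochondrial import and structure, 12 were lower in NASH and 0 were DEGs, with a median of -0.53. Of all genes tested, 14.4% were lower and 3.03% were lower DEGs, the shares for this list and those that follow. The summed import genes in NASH were 0.661 of Control in CPM without overlap, but 0.881 on deposited TPM, where the groups overlapped. Phb2, Timm23 and Phb fell by 0.96 ± 0.15, 0.73 ± 0.13 and 0.68 ± 0.16. The call of Phb2 held in all 21 settings, that of Timm23 in 20 (adjusted p up to 0.222) and that of Phb in 18 (up to 0.43). Of 15 peroxisome biogenesis genes, 11 fell with a median of -0.56, among them the membrane assembly factors Pex16 by 1.22 ± 0.16 and Pex19 by 1.05 ± 0.13, and the docking factor Pex14 by 1.02 ± 0.15. The 10 hepatocyte markers had a median of -0.50, with 3 lower and 7 not passing. In NASH+Exercise against NASH the medians of these 3 lists were 0.11, 0.13 and 0.24, and 0 of their 40 genes passed. Their summed levels were 1.09, 1.09 and 1.03 times those of NASH in CPM, but 0.891, 0.886 and 0.851 times on deposited TPM. The direction of these lists thus depends on the scale.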

How the data were processed

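Per the labels and the submitters' processing notes, reads of 9 liver mRNA libraries were handled with HISAT2 2.1.0, Bowtie2 2.2.5 and RSEM 1.2.8 on GRCm38.p6. The authors deposited estimated counts (not normalized), TPM and FPKM for each gene. FPKM were not used. Symbols came from RefSeq (17728 of 17846 genes), and 0 of 428304 values given in more than 1 file differed.

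Counts were rounded and tested in edgeR 4.0.16 (R 4.3.3) by its robust quasi-likelihood test, after filterByExpr and TMM. The 9 mice entered 1 fit, whose only term was the group, and p-values of 13619 genes were adjusted by Benjamini-Hochberg. The sources used here do not say whether the mice of a group shared a cage or batch. Named genes were all 40 members, up to 3 genes past the test per further list and comparison, and Fgf21. Single genes that the rule also named are in part not reported here. Members and lists were chosen with earlier results of these data known. Alternatives used DESeq2 1.42.0, limma 3.58.1, other scalings, filters and left-out mice. The test scripts were tested on simulated data.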

Additional observations from a re-analysis of the deposited data

How the results depend on the processing

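Of 20 alternatives to the fit reported, none changed the direction of a member past the test. In NASH against Control, 29 to 39 members were lower across them, and 13 to 31 were DEGs, with 16 DEGs under library size alone and 13 in limma with either pseudocount. Over all genes the number lower ran from 381 (of 13619, 1.5-fold threshold) to 2300 (of 15390, DESeq2 on 9 mice). Lower DEGs ran from 151 (of 11566, limma on log2(TPM + 1)) to 476 (of 17810, no filter on low counts), with 219 of 13619 under library size alone. The single call in NASH+Exercise against NASH, Nudt7, was 0 members higher and 0 DEGs with library size alone, hepatocyte scaling, limma on log2(TPM + 0.1) and a 1.5-fold threshold (glmTreat), and 0 to 1 with 1 mouse left out. Over all genes, higher calls there numbered 10, 10, 14 and 0 in that order (of 11566 in limma and 13619 in the others). With 1 mouse left out they numbered 0 to 28. Members lower in NASH+Exercise than in NASH numbered 5 in DESeq2 on 9 mice, 4 on 6 mice and 2 in limma on log2(TPM + 1), with 5, 3 and 2 DEGs. Over all genes 202 of 12974, 289 of 13458 and 105 of 11566 were lower, with 109, 126 and 45 DEGs. Members higher in NASH+Exercise than in Control numbered 0 in edgeR on 6 mice and with glmTreat, and 0 to 1 with 1 mouse left out, and DEGs 1 with library size alone and in limma with either pseudocount, and 0 to 1 with 1 mouse left out. Over all genes, 1838 of 12999 were higher in edgeR on 6 mice and 1098 of 13619 with glmTreat. Higher DEGs numbered 1568 of 13619 with library size alone, and 824 and 1196 of 11566 in limma with pseudocounts 1 and 0.1. With 1 mouse left out, 1589 to 2016 genes were higher and 1165 to 1404 were higher DEGs. Members lower with no overlap in NASH+Exercise against NASH numbered 20 of 40 with library size alone and 27 on TPM, where 28.1 and 37.6% of all genes were. Medians in NASH against Control were, with library size alone -0.79 for all 40 genes, -0.55 for regulators, -1.02 for activation and shuttle, -0.59 for the spiral, -0.87 for auxiliary steps, -0.39 for Bdh1 and -0.80 for peroxisomal genes. They were, scaled on hepatocyte markers -0.84 for all 40 genes, -0.61 for regulators, -1.07 for activation and shuttle, -0.65 for the spiral, -0.93 for auxiliary steps, -0.44 for Bdh1 and -0.85 for peroxisomal genes. They were, in limma on log2(TPM + 1) -0.70 for all 40 genes, -0.48 for regulators, -0.94 for activation and shuttle, -0.48 for the spiral, -0.77 for auxiliary steps, -0.27 for Bdh1, -0.71 for peroxisomal genes, -2.46 for thioesterases and -2.48 for Pdk4 and Vnn1. They were, in limma on log2(TPM + 0.1) -0.70 for all 40 genes, -0.48 for regulators, -0.95 for activation and shuttle, -0.49 for the spiral, -0.77 for auxiliary steps, -0.27 for Bdh1 and -0.72 for peroxisomal genes. With 1 mouse left out in turn they ran -1.55 to -1.28 for activation and shuttle, -1.06 to -0.88 for the spiral, -1.39 to -1.15 for auxiliary steps and -3.41 to -2.75 for thioesterases. Medians in NASH+Exercise against NASH were, with library size alone -0.23 for all 40 genes, -0.20 for activation and shuttle, -0.13 for the spiral and -0.21 for auxiliary steps. They were, scaled on hepatocyte markers -0.25 for all 40 genes, -0.20 for regulators, -0.22 for activation and shuttle, -0.15 for the spiral, -0.22 for auxiliary steps, -0.35 for Bdh1 and -0.18 for peroxisomal genes. They were, in limma on log2(TPM + 1) -0.32 for all 40 genes, -0.28 for regulators, -0.29 for activation and shuttle, -0.22 for the spiral, -0.28 for auxiliary steps, -0.41 for Bdh1 and -0.25 for peroxisomal genes. They were, in limma on log2(TPM + 0.1) -0.32 for all 40 genes, -0.28 for regulators, -0.30 for activation and shuttle, -0.22 for the spiral, -0.29 for auxiliary steps, -0.42 for Bdh1 and -0.25 for peroxisomal genes. With 1 mouse left out in turn they ran -0.19 to 0.16 for activation and shuttle and -0.10 to 0.20 for auxiliary steps. Medians in NASH+Exercise against Control were, with library size alone -0.69 for the spiral. They were, in limma on log2(TPM + 1) -0.63 for regulators, -0.70 for the spiral, -3.92 for thioesterases and -3.63 for Pdk4 and Vnn1. They were, in limma on log2(TPM + 0.1) -0.64 for regulators and -0.70 for the spiral. With 1 mouse left out in turn they ran -1.72 to -1.05 for peroxisomal genes. The ratio of summed levels of NASH to Control, in CPM in place of TPM, was 0.517 for regulators (TPM 0.68), 0.269 for activation and shuttle (TPM 0.37), 0.493 for the spiral (TPM 0.68) and 0.446 for auxiliary steps (TPM 0.611). The ratio of summed levels of NASH+Exercise to NASH, in CPM in place of TPM, was 1.04 for regulators (TPM 0.832), 0.994 for activation and shuttle (TPM 0.81), 1.04 for the spiral (TPM 0.859), 0.996 for auxiliary steps (TPM 0.841) and 0.921 for Bdh1 (TPM 0.748). The ratio of summed levels of NASH+Exercise to Control, in CPM in place of TPM, was 0.512 for the spiral (TPM 0.584) and 0.444 for auxiliary steps (TPM 0.514). Beside the calls named above, those of Etfa held in 17 of 21 settings in NASH against Control, Acadl in 19, and Acadvl, Hadh and Ppara in 20 (adjusted p up to 0.138). No paired analysis was possible because each group held different mice. Depth limits the lowest members most, such as Pdk4 with 21 to 39 counts per NASH+Exercise library. The cause of these changes was not tested.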
